A study of Mus musculus with 2 samples.

Results

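B cells of B16F10 melanomas were taken as 144 of 18252 cell barcodes in a droplet single-cell RNA data set of CD45+ tumour cells. A barcode was a member when it held at least 500 unique molecular identifiers (UMIs, each standing for 1 captured RNA molecule), at most 10% mitochondrial UMIs and under 0.4% UMIs of the melanoma genes Pmel, Mlana, Dct and Tyrp1. It also had to hold no UMI of the T cell genes Cd3d, Cd3e and Cd3g, of the macrophage genes C1qa, C1qb and C1qc or of Siglech, a gene of plasmacytoid dendritic cells, and at least 2 UMIs in all of Cd79a, Cd79b and Ms4a1. Cd79a and Cd79b encode the signalling chains of the B cell receptor and Ms4a1 encodes the surface protein CD20. The members were thus chosen by these counts in both libraries together, so their levels are a description, and no difference between these classes of barcodes was tested.

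B lymphocytes carry a membrane antibody made of paired heavy and light chains as their antigen receptor. Resting cells co-express the IgM and IgD isotypes, present antigen on MHC class II molecules and recirculate between blood and lymphoid organs. After stimulation they can change the heavy chain constant region to an IgG, IgE or IgA isotype by class switching and become plasma cells, which lose the B cell surface programme and secrete antibody through an expanded endoplasmic reticulum. B16F10 is a transplantable melanoma line of C57BL/6 mice, and its tumours are known to hold few B cells next to myeloid and T cells.

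The study set mice of genotype LysM-cre x RelloxP/loxP, in which Rel is deleted in myeloid cells, against mice of genotype LysM-cre x Rel+/+. The product of Rel, c-Rel, belongs to the NF-kB transcription factors, and both groups carried LysM-cre, which is active in myeloid cells such as macrophages and neutrophils. Viable CD45+ cells of 5 pooled tumours were sorted for each genotype 2 weeks after injection of the tumour cells and sequenced as 1 library, so that mice cannot be told apart and there is 1 library per genotype. The barcodes carry the number 1 or 2 for the library, but none of the labels or files read here says which number is which genotype. Libraries are therefore named by number, and the genotypes were not compared.

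Library 1 held 7688 barcodes with a median of 1588 UMIs and library 2 held 10564 with a median of 4290. The filters on UMIs, mitochondrial and melanoma genes left 3270 and 2972 barcodes. The 2 libraries shared 3609 barcode sequences, of which 0 belonged to B cells, 10 to the T cells and 2 to the dendritic cells used for comparison. T cells were the 904 barcodes with at least 2 UMIs of Cd3d, Cd3e and Cd3g, and dendritic cells the 25 with at least 2 UMIs of Flt3, Zbtb46, Xcr1 and Clec9a, each under the same filters and with 0 UMIs of the other classes' markers. Of the 25 dendritic barcodes, 22 held Xcr1 and 17 Clec9a, the markers of the cross-presenting type 1 conventional cells. The T cells were 570 in library 1 and 334 in library 2, and the dendritic cells 8 and 17. Of the 144 B cell members 133 were in library 1, so pooled ratios over dendritic cells mix class with library. Ratios over dendritic cells in library 1 alone rest on its 8 dendritic barcodes. Intervals are given at 95% and reflect counting error alone; differences between tumours and free RNA come on top of it.

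Members were concentrated in library 1. They numbered 133 in library 1, which is 4.07% of the barcodes passing the filters (exact Clopper-Pearson interval 3.42 to 4.8%), and 11 in library 2, which is 0.37% (0.185 to 0.661%). Most were shallow: the median was 615.5 UMIs and 376.5 genes, against 1246.5 UMIs in T cells and 3473 UMIs in dendritic cells, and 64 of the 144 lay between 501 and 598 UMIs. Raising the minimum to 1000 UMIs left 32 members, among them all 13 of the antibody-rich barcodes described below.

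Of the members, 44 held exactly 2 UMIs of the 3 marker genes, 31 held 3 and 69 held 4 or more, with a maximum of 15. Cd79a was seen in 137 members, Cd79b in 95 and Ms4a1 in 50, while 36 members rested on 1 of the 3 genes. Just outside the rule, 46 barcodes held 1 marker UMI and met all other conditions, and Igkc, the kappa light chain constant gene, was seen in 21 of those 46 against 40 of the 44 members with exactly 2 marker UMIs. The other conditions kept out 18 barcodes for a C1q UMI, 10 for melanoma genes, 9 for a Cd3 UMI, 6 for fewer than 500 UMIs, and 0 for Siglech or mitochondrial UMIs. All 6 under 500 UMIs were in library 2, whose barcodes reach down to 409 UMIs, while the lowest in library 1 had 500.

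Marker genes of some other cell types were seen in part of the members. All 6 T cell genes looked up (the Cd3 genes, which the rule bars, and Trac, Cd8a and Cd4) were at 0, and dendritic markers came to 2 UMIs. NK cell markers gave 24 UMIs in 8 members and monocyte markers 144 UMIs in 46 members, 88 of them from Plac8, which B cells also express. Neutrophil markers gave 174 UMIs in 8 members, with 91 in 1 barcode, and the haemoglobin genes Hba-a1 and Hbb-bs gave 593 UMIs in 7 members, with 587 in 1 barcode. Melanoma markers gave 63 UMIs in 50 members, or 386 CPM (UMIs of a gene or list per 1000000 UMIs of the class), against 464 CPM in T cells and 1468 CPM in dendritic cells. Monocyte markers were at 881 CPM in the members, 773 CPM in T cells and 669 CPM in dendritic cells. In the same order, neutrophil markers were at 1065, 329 and 8.06 CPM, and the haemoglobin genes at 3630, 649 and 24.2 CPM. NK cell markers were at 147, 2257 and 8.06 CPM. No doublet caller was run, and the 8 members with more than 2 UMIs of Lyz2, S100a8, S100a9, Nkg7, Gzma and Gzmb are members here and were left out in an alternative.

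The members fell into a small antibody-rich set and a large set with little antibody RNA. In 13 members, 9 of library 1 and 4 of library 2, immunoglobulin genes took 22.0 to 68.5% of all UMIs, and these are called Ig-rich. The threshold of 20% was chosen after the shares had been seen, and nearest to it lay 1 barcode at 22.0% above and 1 at 11.3% below, with the other 130 members under 6%. Ig-rich members had a median of 5190 UMIs, against 603 in the other 131. They made up 38.5% of all UMIs of the 144 members and 93.9% of their immunoglobulin UMIs, so a pooled level of the members mixes both sets, and levels are given for each below.

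**Figure D1:**
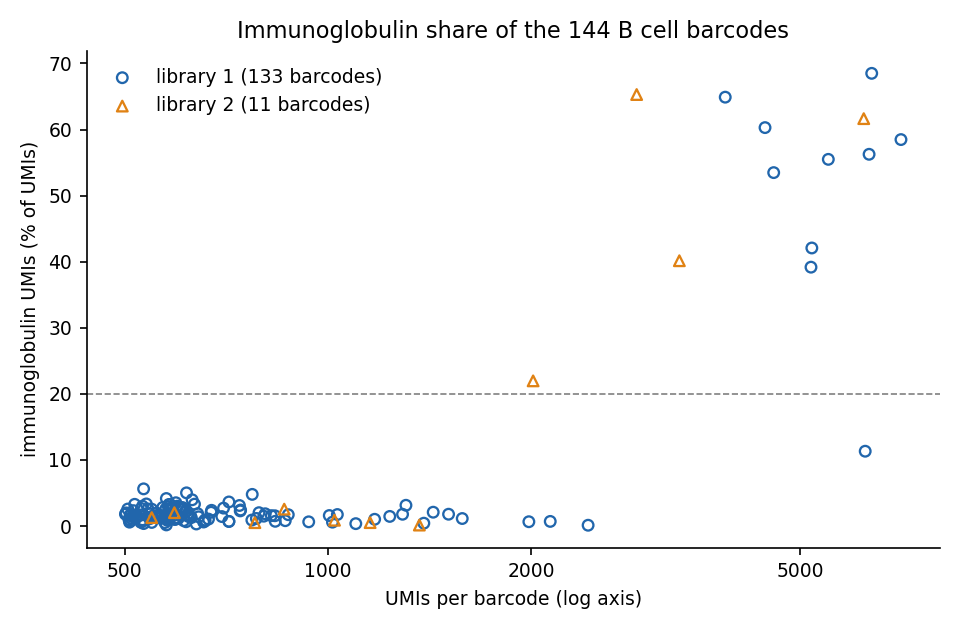
Immunoglobulin UMIs as a percentage of all UMIs (vertical axis) against UMIs per barcode (horizontal log axis) for the 144 members, circles for library 1 and triangles for library 2. The dashed line marks 20%, above which 13 barcodes lie between 22.0 and 68.5%, all with 2012 or more UMIs.

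IgA was the leading isotype of the Ig-rich members. Igha, the IgA heavy chain constant gene (mouse build mm10, chromosome 12, 113254830 to 113260236, minus strand), led the heavy chain UMIs in 12 of 13, with 132 to 1029 UMIs per barcode, and Ighg2b led in the remaining 1, with 884. The leading heavy chain gene took at least 96.1% of a barcode's heavy chain constant UMIs. Igkc (chromosome 6, 70726435 to 70726966, plus strand) led the light chains in 12, with 304 to 3475 UMIs, and Iglc1 in 1, which held 2079 Iglc1 UMIs and 0 Igkc UMIs. The leading light chain gene took at least 98.8% of the light chain UMIs of its barcode.

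**Figure D2:**
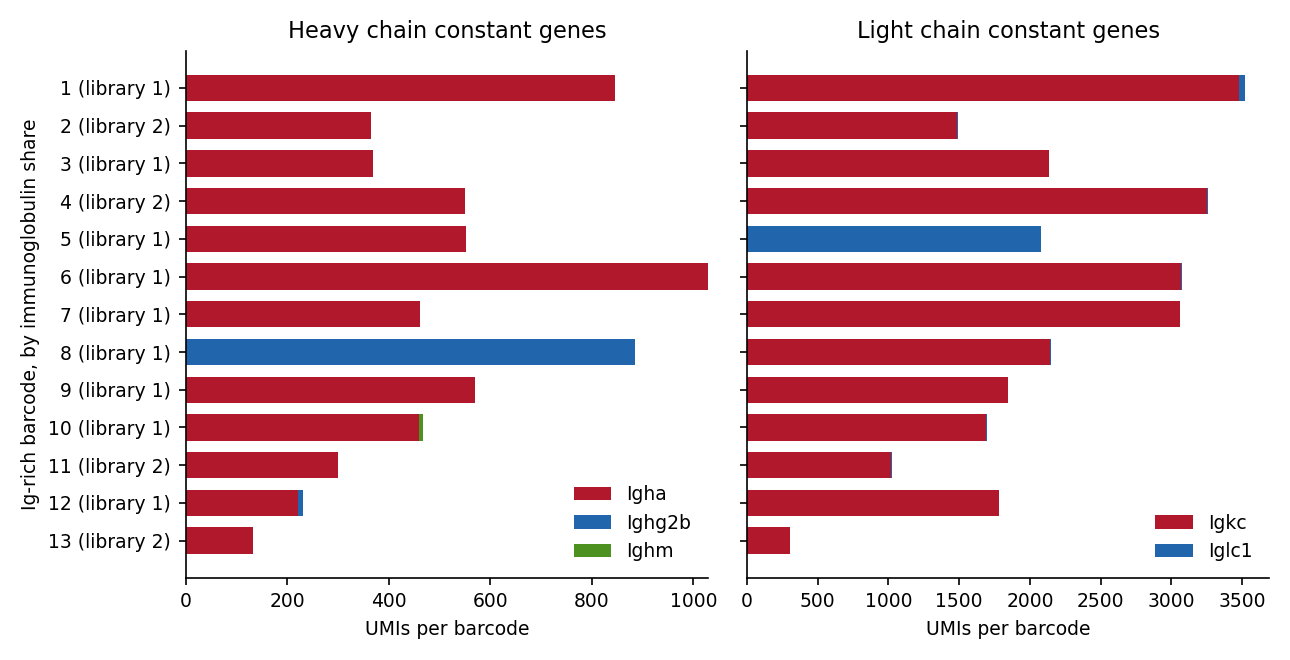
UMIs of heavy chain (left) and light chain (right) constant genes in each of the 13 Ig-rich barcodes, ordered from the highest to the lowest immunoglobulin share; each bar is 1 barcode, stacked by gene. Igha fills 12 of the 13 heavy chain bars and Igkc 12 of the 13 light chain bars.

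Variable genes differed among the Ig-rich members. Of the 12 kappa barcodes, 11 held at least 3 UMIs of 1 kappa variable gene, and these 11 used 9 different leading genes, Igkv1-117 and Igkv14-111 leading in 2 each. At least 3 UMIs of a heavy chain variable gene were found in 7 members, which led with 7 different genes. Variable genes resemble each other and 3′ reads cover them thinly, so these names are uncertain and no clone was called.

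The 5 plasma cell genes used as markers were all detected in the Ig-rich members, which are plasma cell-like by them. Jchain, which encodes the chain that joins IgA and IgM into polymers, gave 26 to 243 UMIs in all 13, with a median of 139. Tnfrsf17, the survival receptor BCMA, was seen in 10, Derl3, a factor of endoplasmic reticulum-associated degradation, in 9, Prdm1, the regulator Blimp-1, in 6 and Sdc1, the surface proteoglycan CD138, in 3. Mzb1, a chaperone of antibody assembly, was seen in 13 and Xbp1, a transcription factor of the unfolded protein response, in 12. Ms4a1 and Ebf1 were at 0 in all 13, and Mki67, a gene of cycling cells, was seen in 1.

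Barcodes with at least 20% immunoglobulin UMIs also existed outside the rule, and counting them changed the picture by library. Among all barcodes of at least 500 UMIs there were 20, of which the rule kept 13, left out 6 for having 0 or 1 marker UMIs and left out 1 for a C1q UMI. These 20 were 10 in library 1 and 10 in library 2, and 18 of them were led by Igha. The other 131 members were 124 in library 1 and 7 in library 2. A rule on Cd79a, Cd79b and Ms4a1 therefore kept 9 of 10 Ig-rich barcodes in library 1 and 4 of 10 in library 2.

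Against the other 131 members, with immunoglobulin UMIs taken out of the totals, the Ig-rich members were higher in the compared plasma cell genes and lower in the compared MHC class II genes. Of 862 genes with enough UMIs, 151 (17.5%) were at least 2 times higher in the Ig-rich members, 131 (15.2%) of them with an interval above 1, and 255 (29.6%) were at least 2 times lower, 163 (18.9%) of them with an interval below 1. By the rule with the interval, 6 of 11 plasma cell genes had enough UMIs and all 6 were higher, and 7 of 10 MHC class II genes had enough and all 7 were lower. Of the 16 B cell identity genes 9 had enough, 5 were lower and 4 (Cd24a, Fcrla, Vpreb3 and Cd55) were not called. Genes pass the minimum most easily through the set where they are high, and the split was made on immunoglobulin share, so these counts and ratios are a description. Jchain stood 783 times higher in the Ig-rich members (interval 397 to 1818), from 1820 UMIs against 8. Xbp1 stood 55.1 times higher (22.7 to 174) and Mzb1 14.8 times higher (11 to 20.3).

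Genes of several steps of the route to secretion were among those higher in the Ig-rich members. For entry into the endoplasmic reticulum, Sec61b of the translocation channel was 10.5 times higher, Ssr4 of the translocon-associated complex 15 times and Sec11c of the signal peptidase 27.7 times. Among folding factors, the chaperone genes Hsp90b1 and Hspa5 were 12 and 5 times higher, and the disulfide-forming enzymes encoded by Txndc5, Pdia4 and Pdia6 were 34.4, 14.9 and 4.07 times higher. For N-glycosylation, Rpn1 and Ddost of the oligosaccharyltransferase were 11.9 and 6.03 times higher. For export and disposal of misfolded protein, Lman1, a cargo receptor, was 20.7 times and Edem1 65.4 times higher. These genes, apart from Edem1, Sec61b and Txndc5, were named after their values were seen.

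Among the genes that were lower, H2-Aa, an MHC class II chain, was seen in 2 of the 13 Ig-rich members and its ratio was 0.0506 (0.0137 to 0.131). Cd74, the invariant chain, was seen in all 13 with 1 to 8 UMIs, and its ratio was 0.27 (0.205 to 0.349). B2m, the light chain of MHC class I, went the other way, with a ratio of 4.42 (2.95 to 6.64), and H2-K1, a class I heavy chain, had 1.21 (0.893 to 1.63), both named after their values were seen. The surface genes Ly6d and Cd37 had ratios of 0.0754 and 0.0656, and Btg1, an antiproliferative gene, of 0.0532. Cd24a, also a surface gene, had 0.898 (0.299 to 2.27). Ebf1, Bank1, Fcmr, H2-DMb2 and Cd83 were at 0 in the Ig-rich members, against 140, 61, 57, 55 and 47 UMIs in the other members. With the limit of 3 UMIs that a count of 0 allows, Ebf1 was at least 13.6 times and Bank1 at least 5.9 times lower in the Ig-rich members.

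**Figure D3:**
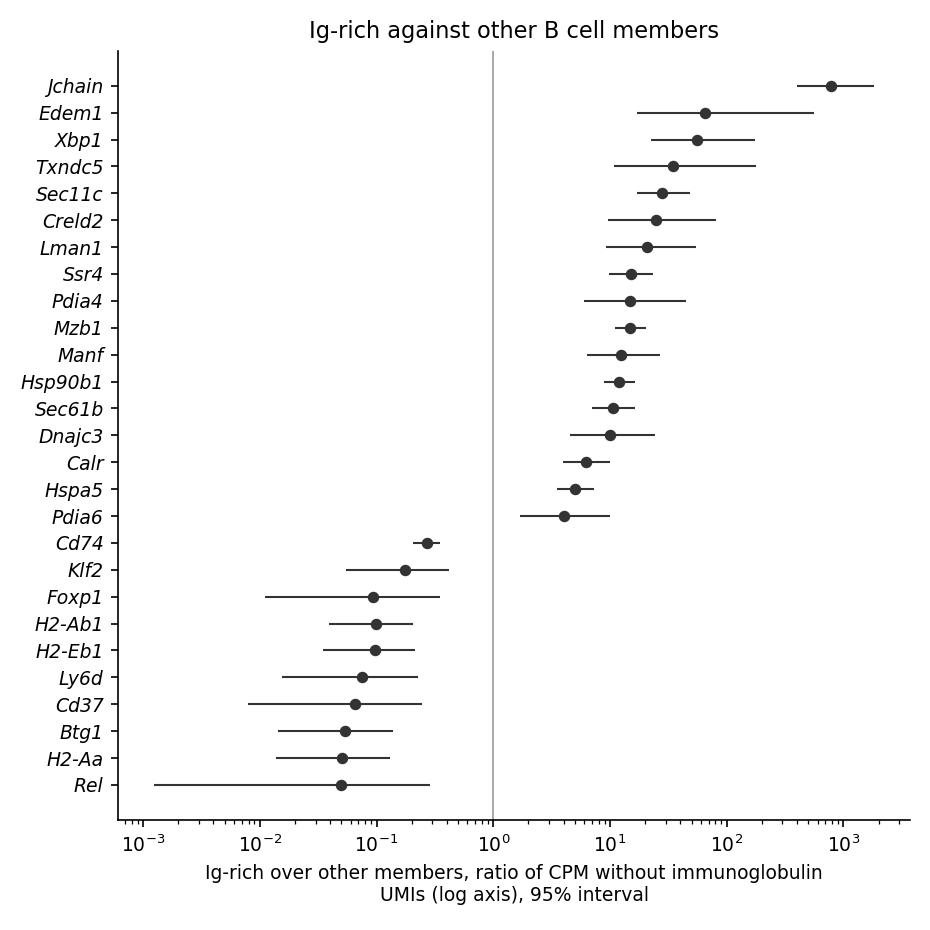
Ratio of levels in the 13 Ig-rich members over the other 131 members, from CPM without immunoglobulin UMIs, on a log axis with 95% intervals; the vertical line marks 1. The genes were chosen to show both sides: 17 lie to the right, from Pdia6 at 4.07 to Jchain at 783, and 10 to the left, with H2-Aa at 0.0506.

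Several of the chaperone genes carry the endoplasmic reticulum stress element in their promoters, the sequence through which ATF6 and XBP1 are known to act. Its letters, CCAAT and CCACG with 9 free bases between them, were searched on both strands in RefSeq promoters (GRCm38.p6, 250 bases before to 50 after each start). Of the 131 genes higher in the Ig-rich members with an interval above 1, 108 had a promoter in the table and 6 of them held the element, which is 5.56%. It was held by 0 of 125 promoters of genes lower in the Ig-rich members, by 7 of 671 of all genes compared, or 1.04%, and by 37 of 27025 genes of the table, or 0.137%. The 6 genes were Calr, Creld2, Dnajc3, Hsp90b1, Hspa5 and Pdia6, and the seventh among the genes compared was Hnrnpa3, at a ratio of 0.574 (0.108 to 1.97). A match is a run of letters and no evidence of binding in these cells. Another 2 sequences were searched in the promoters of the B cell identity, transcription factor and signalling lists: the octamer, ATGC followed by AAAT, was in 3 of 41, or 7.32%, and in 1.97% of all genes, and the EBF sequence, TCCC and GGGA with 2 free bases between them, in 1 of 41 and in 1.06% of all genes. The promoters of 4 of the 6 follow, 5′ to 3′ on the gene's strand, with the element in capitals, so that its place and orientation can be compared. They are Hsp90b1 at chr10:86705395-86705694 (minus strand, 2 copies), Hspa5 at chr2:34771840-34772139 (plus strand), Creld2 at chr15:88819396-88819695 (plus strand) and Calr at chr8:84846882-84847181 (minus strand).
Hsp90b1: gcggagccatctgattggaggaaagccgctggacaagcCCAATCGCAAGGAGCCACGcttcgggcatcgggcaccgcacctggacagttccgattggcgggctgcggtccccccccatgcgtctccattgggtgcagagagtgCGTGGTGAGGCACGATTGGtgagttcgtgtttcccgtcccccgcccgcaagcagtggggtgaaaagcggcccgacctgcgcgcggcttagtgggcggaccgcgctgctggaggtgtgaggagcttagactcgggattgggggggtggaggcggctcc
Hspa5: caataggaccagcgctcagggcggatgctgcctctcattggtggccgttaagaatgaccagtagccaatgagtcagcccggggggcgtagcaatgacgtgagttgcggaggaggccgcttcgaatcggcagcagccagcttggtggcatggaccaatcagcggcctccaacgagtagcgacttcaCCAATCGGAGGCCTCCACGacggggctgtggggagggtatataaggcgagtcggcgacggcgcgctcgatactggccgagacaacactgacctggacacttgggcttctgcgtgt
Creld2: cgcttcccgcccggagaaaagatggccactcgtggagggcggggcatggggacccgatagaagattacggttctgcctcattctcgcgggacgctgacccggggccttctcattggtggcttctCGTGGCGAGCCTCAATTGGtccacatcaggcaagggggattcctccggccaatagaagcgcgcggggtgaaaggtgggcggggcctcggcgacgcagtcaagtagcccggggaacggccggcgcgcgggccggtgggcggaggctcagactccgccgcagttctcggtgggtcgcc
Calr: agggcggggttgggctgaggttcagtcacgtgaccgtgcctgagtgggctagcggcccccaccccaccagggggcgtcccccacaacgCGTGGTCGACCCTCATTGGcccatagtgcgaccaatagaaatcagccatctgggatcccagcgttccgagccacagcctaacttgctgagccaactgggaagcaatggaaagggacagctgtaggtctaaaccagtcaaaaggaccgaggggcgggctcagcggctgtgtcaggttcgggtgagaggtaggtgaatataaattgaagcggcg
The first copy begins 212 bases before the start in Hsp90b1, 65 in Hspa5, 126 in Creld2 and 162 in Calr, and in Creld2 and Calr it stands in the reverse orientation.

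IgM and IgD genes were the main heavy chain genes of the other 131 members. Ighm, the IgM constant gene, was seen in 92 of them and Ighd in 34, 23 held both, and 103 held at least 1 of them. Ighm was also seen in 7.08% of T cells and 32% of dendritic cells, and Igkc in 8.3% of T cells and 4% of dendritic cells, which should lack both; where these UMIs came from was not tested. After each barcode was thinned to 500 UMIs the shares with Ighm were 61.8% of the other members and 3.65% of T cells. Ighd was at 0 in T cells. Per barcode, Ighm ran from 0 to 10 UMIs with a median of 1, and Igkc from 0 to 590 with a median of 8.

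Switched isotypes were nearly absent from the 131. Only 3 held at least 3 UMIs of a switched constant gene: 2 held 3 Ighg2b UMIs each, and 1 held 97 Ighg1 UMIs. That last barcode was the member at 11.3% immunoglobulin, with 6244 UMIs, 590 Igkc, 6 Jchain, 2 Ms4a1 and 3 Mki67 UMIs. Igha gave 1 UMI in the 131 members. No heavy chain constant UMI was found in 25, and with a median of 603 UMIs per barcode an isotype cannot be read for them.

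Kappa outnumbered lambda among the light chains. Over all 144 members the lambda constant genes Iglc1, Iglc2 and Iglc3 took 7.99% of light chain UMIs (interval 7.68 to 8.31%). That value rests on few barcodes, since 2079 of the 2342 lambda UMIs came from 1 Ig-rich member, and it was 1.17% with members of at least 3 marker UMIs, which leaves that barcode out. In the other 131 the share was 7.72% (6.54 to 9.03%). Here too 1 barcode weighed heavily: the member at 11.3% immunoglobulin gave 606 of the 1840 light chain UMIs. The interval treats UMIs as independent and leaves out this spread between barcodes. Counting barcodes, of 102 with at least 5 light chain UMIs, lambda led in 5 and kappa in 97.

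Against T cells, genes of B cell identity were higher throughout. Of 7036 genes with at least 20 UMIs over both classes, 468 (6.65%) were at least 2 times higher in B cells and 1649 (23.4%) at least 2 times lower, in the pooled libraries and in library 1 alone; intervals left out 1 for 353 (5.02%) and 878 (12.5%) of these. The median log2 ratio of all genes was -0.43, and immunoglobulin took 22.5% of the members' UMIs. With the other 131 members alone, 780 of 6983 genes (11.2%) were higher and 1085 (15.5%) lower, 503 (7.2%) and 453 (6.49%) of them with an interval without 1, and the median log2 ratio was -0.08. Of the 16 B cell identity genes, 10 had enough UMIs and all 10 were higher in B cells. Of 19 B cell transcription factors, 11 of 15 tested were higher and 0 lower. The gene lists were chosen with earlier results of these data known, and library 1 gave 142644 of the members' 163367 UMIs, so these counts describe the class. Here and against dendritic cells, genes pass the minimum most easily through the class where they are high. All 9 tested immunoglobulin constant genes were higher in B cells than in T cells.

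Among the identity and receptor genes, Fcmr, the Fc receptor for IgM, gave 57 UMIs in 42 of the other 131 members. It was at 0 in the Ig-rich members, T cells and dendritic cells. Ly6d was at 47.7 CPM in the Ig-rich members, 1364 CPM in the other members, 4.05 CPM in T cells and 0 in dendritic cells. Here and below, class totals for CPM include immunoglobulin UMIs, which took 54.7% in the Ig-rich members and 2.23% in the others. Levels of the Ig-rich members thus come out lower than with those UMIs left out. Bank1, an adaptor of receptor signalling, was at 607 CPM in the other members (interval 465 to 780.3) and 1.16 CPM in T cells. Cd37, a tetraspanin that T cells also express, was at 1046 CPM in the other members and 151 CPM in T cells, a ratio of 6.94 (5.48 to 8.74). Fcer2a, the low-affinity IgE receptor CD23, gave 22 UMIs in 20 of the 131, and Siglecg, an inhibitory lectin, 33 UMIs in 24.

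Of the transcription factors, Ebf1 (chromosome 11, 44617317 to 45008091, plus strand), which commits progenitors to the B lineage, gave 140 UMIs in 84 of the other 131 members, 0 in the Ig-rich members, 0 in T cells and 0 in dendritic cells. Against the limit of 3 UMIs in T cells it was at least 802 times higher in the other members. All of its UMIs came from library 1, where those members were at 1488 CPM. In library 2 their 7 barcodes held 0 of 6321 UMIs, which allows up to 475 CPM. Pax5, the keeper of B cell identity, gave 13 UMIs in 12 of the 131 and 0 in the other 3 classes. Mef2c was at 445 CPM in the Ig-rich members, 1524 CPM in the other members and 20.3 CPM in T cells. Pou2af1 encodes the coactivator OBF-1, which works with octamer-binding factors on immunoglobulin genes. It was at 159 CPM in the Ig-rich members, 279 CPM in the other members and 1.16 CPM in T cells. With immunoglobulin UMIs taken out of the totals, neither Mef2c nor Pou2af1 was called between the Ig-rich and the other members. So Ebf1 and Pax5 were found in the other members alone among the 4 sets, while Mef2c and Pou2af1 were found in both sets of B cells. Pax5 held too few UMIs for the comparison of the Ig-rich with the other members, so its absence from the Ig-rich members is uncertain.

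The 7 members of library 2 outside the Ig-rich set did not differ from those of library 1 in every gene. Mef2c stood at 1740.2 CPM in library 2 and 1509 CPM in library 1, and H2-Aa at 2215 and 2742 CPM. Ebf1, Rel and Cd83 were at 0 in library 2, while they stood at 1488, 733 and 499 CPM in library 1, each above the limit of 475 CPM. Igkc was at 6169.9 CPM in library 2 and 17631 CPM in library 1. These genes were picked with their values in view, and 7 barcodes with 6321 UMIs do not show how the libraries compare beyond them.

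Signalling genes below the receptor were higher in B cells or did not pass the ratio of 2. Of 16 genes, 11 were tested, and 5 were higher and 0 lower in B cells, or 7 and 0 with the other 131 members. The kinase genes Syk and Lyn had ratios over T cells of 46.9 and 21.3 in the 131, Syk being at 89.9 (31.7 to 351) in library 1 alone, and Blnk, the linker below Syk, gave 10 UMIs in them, against 1 in T cells. Inpp5d, the phosphatase SHIP1, and Prkcb, a protein kinase C, had ratios of 4.05 and 6.39. Bcl10 and Malt1, which both receptors use to reach NF-kB, had ratios of 1.89 (0.98 to 3.37) and 1.82 (1.17 to 2.74).

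**Figure D4:**
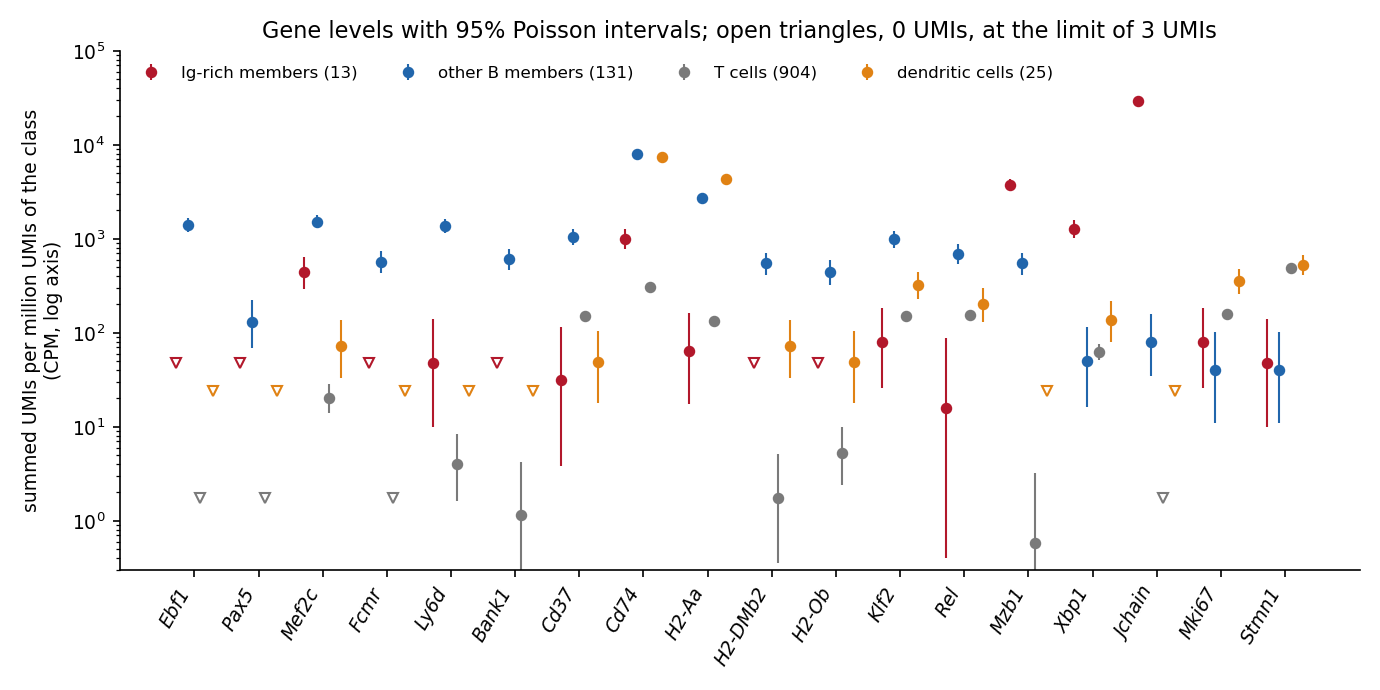
Levels (CPM, log axis) for 18 genes in the Ig-rich members, the other members, T cells and dendritic cells, with 95% Poisson intervals; open triangles mark a count of 0, drawn at the limit of 3 UMIs. Ebf1, Pax5 and Fcmr have UMIs in the other members alone, Jchain is highest in the Ig-rich members, and Cd74 is at about the same level in the other members and dendritic cells. The totals include immunoglobulin UMIs.

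MHC class II genes were higher in B cells than in T cells and, in the other 131 members, near the level of dendritic cells for some genes and below it for others. Against T cells 8 of 9 tested were higher, and 9 of 9 with the 131. Cd74 was at 1001 CPM in the Ig-rich members, 8007 CPM in the other members, 304 CPM in T cells and 7475 CPM in dendritic cells. Per barcode it ran from 0 to 18 UMIs with a median of 6 in the other members, and was seen in 129 of them, against 10.7% of T cells.

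Against dendritic cells, of 1814 genes tested 200 (11%) were higher in B cells (187, or 10.3%, with an interval above 1) and 459 (25.3%) lower (415, or 22.9%, with an interval below 1), and with the other 131 members 220 of 1594 (13.8%) were higher and 338 (21.2%) lower, of which 204 (12.8%) and 292 (18.3%) had an interval without 1. Of 10 class II genes, 2 were higher and 5 lower, or 2 and 2 with the 131. The ratio of the 131 over dendritic cells was 1.07 (0.973 to 1.18) for Cd74, 0.627 for H2-Aa, 0.431 for H2-Ab1 and 0.571 for H2-Eb1. Both genes that were higher belong to the editing machinery of B cells: H2-DMb2 had a ratio of 7.55 (3.7 to 17.4), or 15.0 (3.95 to 127) in library 1 alone, and H2-Ob, a chain of the DM inhibitor H2-O, 9.06 (3.84 to 26). H2-DMb1, which encodes the alternative DM beta chain, went the other way, with a ratio of 0.0982 (0.0384 to 0.211). H2-DMb1 and H2-DMb2 are near copies of each other, so their split is uncertain where reads fit both.

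Against dendritic cells 7 of 9 tested genes of B cell identity were higher in B cells and 0 lower, and 6 of 10 transcription factors were higher and 1 lower. The lower factor was Irf8, which type 1 dendritic cells need, at 329 CPM in the 131 and 1435 CPM in dendritic cells. Of the costimulation and checkpoint ligands 1, Cd83, was tested and 0 called, at 468 CPM in the 131 and 323 CPM in dendritic cells, and Cd86, a ligand of CD28, gave 5 UMIs in the members and 8 in dendritic cells.

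Genes of follicular and naive B cells were higher in the other 131 members than in T cells for 6 of 8 tested, and for 5 of 8 with all members. Ccr7, the receptor that leads cells into lymph nodes, was at 0 in the Ig-rich members, 368 CPM in the other members and 104 CPM in T cells. Klf2, a regulator of recirculation, was at 79.4 CPM in the Ig-rich members, 986 CPM in the other members and 151 CPM in T cells. Cxcr5, the receptor for follicles, gave 16 UMIs in 13 of the 131 and 0 in the other sets. Over the 32 members of at least 1000 UMIs the log2 ratio over T cells of Ccr7 was -0.64. Of the wider list of homing receptors, 3 of 9 tested were higher and 1 lower.

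Lists of other B cell states, apart from the plasma cell list, had few genes tested or called. Of all genes compared with T cells, 6.65% were higher in all members and 23.4% lower. Of marginal zone and B1 genes, 0 of 6 tested were higher and 1 lower, Cd5, with 1 of 163367 UMIs in the members against 107 of 1726325 in T cells. With the 131 alone Cd5 was lower and 1 of 6 was higher, Ahr, with an interval that held 1. Cr2 gave 5 UMIs in the 131. Of germinal centre genes 1 was tested with all members and 0 called. With the 131 alone 0 were tested, so this list cannot tell whether they are in that state. Mef2b and Rgs13 were at 0 in all classes, and Bcl6 gave 2 UMIs in the members. With 163367 UMIs over the members, a count of 0 allows up to 18.4 CPM. Of memory and atypical genes, 0 of 5 tested were higher and 2 lower, Cd27 and Pdcd1lg2, the latter with an interval that held 1. Tbx21 and Itgax were at 0 in the members. The plasma cell list had 6 of 8 tested genes higher than in T cells with all members and 2 of 7 with the other 131, Mzb1 and Irf4. Lower were 0 with all members and 1 with the other 131, Prdm1. It gave 2 of 100418 UMIs in the 131 and 69 of 1726325 in T cells. The interval of its ratio held 1, and in library 1 alone the ratio was 0.436 (0.0515 to 1.65).

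Early activation genes were higher in the other 131 members than in T cells for 10 of 17 tested and lower for 1, against 4 and 1 with all members. Over all genes compared, 11.2% were higher and 15.5% lower in the 131. Against dendritic cells 6 of 15 tested were higher in the 131 and 2, Fos and Nr4a2, lower, where 13.8% of all genes were higher and 21.2% lower. With all members 4 were higher and 4 lower than in dendritic cells. Cd83 was at 0 in the Ig-rich members, 468 CPM in the other members and 34.8 CPM in T cells, a ratio of 13.5 (8.99 to 20.1) for the 131. Btg1 was at 63.5 CPM in the Ig-rich members, 2579 CPM in the other members and 825 CPM in T cells. Over T cells, Cd69 had a ratio of 3.04 (2.02 to 4.44) and Egr1 of 3.33 (1.63 to 6.23). Over dendritic cells in library 1 alone, Cd69 had 18.1 (3.03 to 738) in the 131 and Egr1 0.309 (0.139 to 0.652). Nr4a2 was the gene lower than in T cells, at 29.9 CPM in the 131 and 163 CPM in T cells. Of 10 genes of the stress of tissue digestion, 4 were higher and 1 lower in the 131, among them Hspa1a, with 30 UMIs in 11 barcodes, and the part of digestion in the activation genes was not tested.

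Rel, the gene deleted in myeloid cells of 1 of the genotypes, is also known to be expressed in B cells. It was at 15.9 CPM in the Ig-rich members (1 UMI), 687 CPM in the other members (69 UMIs in 51 barcodes), 154 CPM in T cells and 202 CPM in dendritic cells. The ratio of the 131 was 4.46 over T cells (3.37 to 5.83) and 3.41 over dendritic cells (2.13 to 5.62). In library 1 alone it was 4.64 (3.47 to 6.17) and 4.34 (2.16 to 9.89), the latter against 9 UMIs in dendritic cells. In library 1 the 131 were at 733 CPM, from 69 UMIs, and in library 2 their 7 barcodes held 0 UMIs, with the same limit of 475 CPM as for Ebf1. Over the 32 members of at least 1000 UMIs, of which 13 are Ig-rich, the log2 ratio of Rel was -0.15 over T cells and -0.52 over dendritic cells. After thinning to 500 UMIs, 32.1% of the 131 held Rel (24.2 to 40.8%), against 7.08% of T cells and 8% of dendritic cells. Of the 13 genes of the NF-kB list tested against T cells, 3 were higher in the 131 and 1 lower, where 11.2% of all genes compared were higher and 15.5% lower. Besides Rel the higher ones were Rela, the p65 subunit, at 2.42 (1.16 to 4.58) and Nfkbid, a nuclear IkB protein, at 3.21 (1.52 to 6.16). The lower one was Nfkb2, with 2 UMIs in the 131 and an interval that held 1. In library 1 alone its ratio was 0.324 (0.0385 to 1.21). Nfkb1, Relb and Nfkbia had ratios of 1.85, 1.06 and 1.14.

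Survival genes differed by gene: of 9 tested with all members, 2 were higher and 3 lower than in T cells. Higher were Birc3, an inhibitor of apoptosis, and Tnfrsf13b, the receptor TACI, at 7.06 and 6.19 times the T cell level in the 131. Lower were Bcl2a1b and Traf1, at 0.226 and 0.262 times in the 131, and Bcl2, which was called with all members but not in the 131, where its ratio was 0.557 (0.221 to 1.17). Tnfrsf13c, the receptor for the B cell survival factor BAFF, held too few UMIs for the comparison, with 14 in the members and 1 in T cells. Innate sensing genes had 2 of 2 tested higher, Ly86, the partner of CD180, and Unc93b1, the carrier of endosomal Toll-like receptors. In the 131 they were at 51.6 and 25.8 times the T cell level, while against dendritic cells 0 of 2 were called. Fc and inhibitory receptors had 3 of 3 higher, but these genes, Fcer2a, Fcmr and Siglecg, passed the minimum mainly through the members. Costimulation and checkpoint ligands had 2 of 6 higher and 1 lower. Cytokine genes had 0 of 7 higher and 4 lower, Ifng, Ccl3, Ccl4 and Ltb, of which Ltb was not called in the 131. Ifng was at 0 in the members and 176 CPM in T cells. Ccl3 and Ccl4 were at 79.7 and 79.7 CPM in the 131 and 241 and 350.5 CPM in T cells. Il6 and Il10 were at 0 in the members, but Il6 was also seen in 0% and Il10 in only 0.664% of T cells. Interferon response genes had 1 of 11 higher and 1 lower. The higher one, Isg15, was seen in 1 Ig-rich member and 0 of the 131, with which 0 of 11 were higher and 2 lower. Over all genes compared with T cells, 6.65% were higher in all members and 23.4% lower.

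Cell cycle genes were lower in B cells for 13 of 16 tested against T cells and 4 of 5 against dendritic cells. Stmn1 was at 47.7 CPM in the Ig-rich members, 39.8 CPM in the other members, 488 CPM in T cells and 532 CPM in dendritic cells. Top2a gave 5 UMIs in 2 of the 144 members and Mki67 9 UMIs in 3, so UMIs of both genes came from few barcodes.

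**Figure D5:**
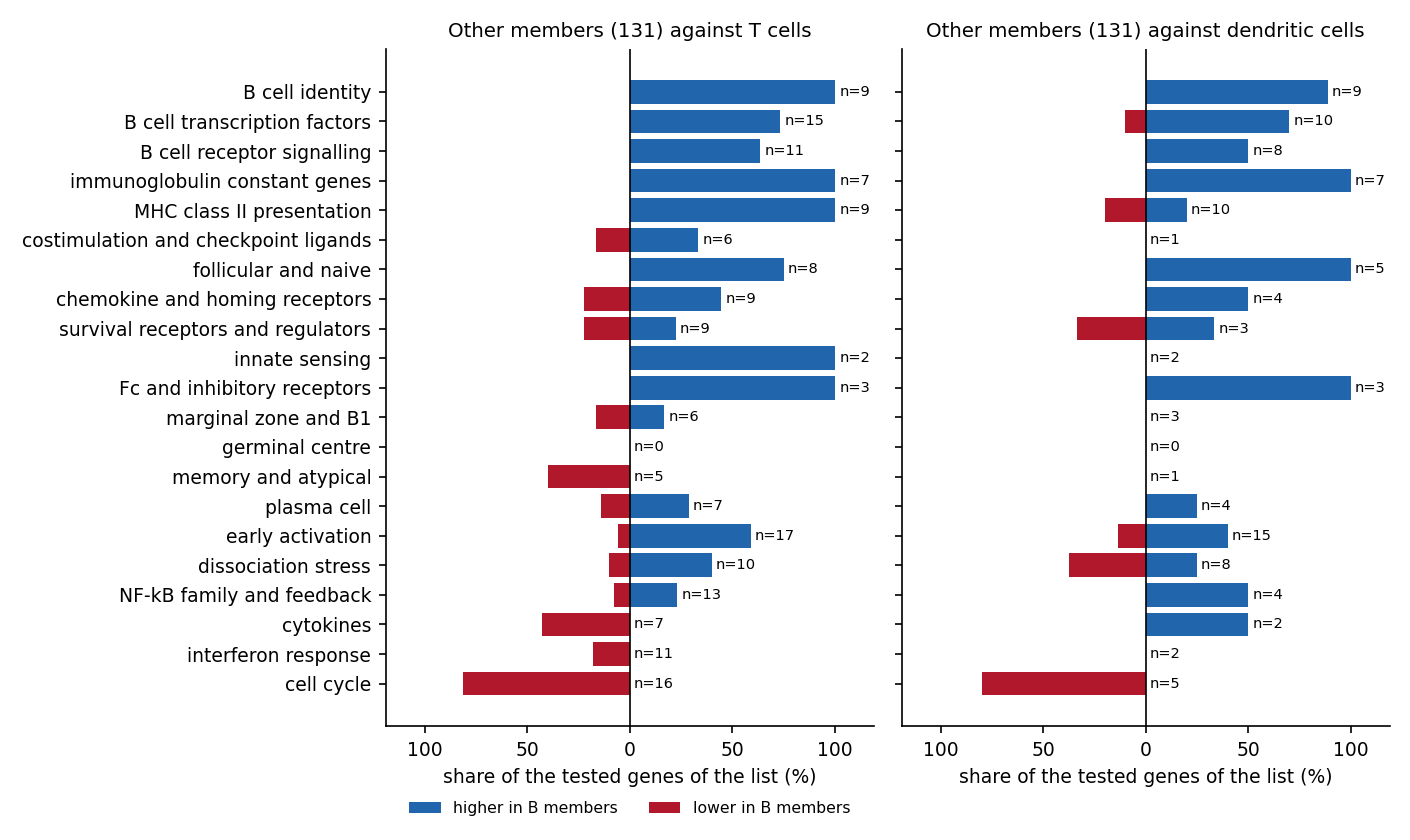
Share of the tested genes of each list that were at least 2 times higher (blue, right) or lower (red, left) in the other 131 members than in T cells (left panel) and dendritic cells (right panel); n is the number of genes tested. Against T cells the lists of B cell identity, immunoglobulin and MHC class II lie wholly on the higher side, and 13 of 16 cell cycle genes on the lower side.

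Beyond the lists, the genes highest against T cells came from both sets of members. Scd1, which encodes a fatty acid desaturase, gave 38 UMIs in 32 members, all among the 131, and was 40.2 times higher (19.6 to 90.4), or 146 times in library 1 alone. Hvcn1, a proton channel, was 13.7 times, March1, a ubiquitin ligase that turns over MHC class II, 46.5 times and Gm31243 349 times higher (58.4 to 14186). Txndc5, Fkbp11 and Ckap4 were led by the Ig-rich members, which held 477 CPM of Txndc5, 349 of Fkbp11 and 222 of Ckap4, while the other members held 29.9, 9.96 and 49.8. The 12 lowest genes were at 0 in all members and are genes of T cells, such as Gzmf, Gzmb, Thy1, Lck, Icos and Pdcd1, with Gzmf at least 60.8 times lower than the 1117 CPM of T cells. Against dendritic cells, Satb1, Gimap1, Rcsd1 and Rasgrp2 were at 0 in dendritic cells and gave 47, 32, 28 and 27 UMIs in the members. S100a9 and the haemoglobin genes were also among the highest and rest on 6 members for S100a9 and on 1 barcode for nearly all Hbb-bs and Hba-a1 UMIs. Cst3, an inhibitor of cysteine proteases that marks dendritic cells, was the lower gene with most UMIs, at 379.5 CPM in B cells and 17224 CPM in dendritic cells.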

How the data were processed

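Viable CD45+ tumour cells were profiled as 2 droplet libraries, 1 per genotype. The deposited matrix holds raw UMI counts for 31053 genes and 18252 barcodes; Cell Ranger and the mm10 build are named, per the submitters' processing notes, and the file headers give software version 3.0.2. Depth per library is given with the results. The members and gene lists were chosen with earlier results of these data known. Counts were summed per class, divided by the class total and given as CPM with exact Poisson intervals. Ratios of sums carry exact conditional binomial intervals and shares Clopper-Pearson intervals, all at 95%. With 1 library per genotype and no tie between library numbers and genotypes there was no test. A gene was called at a ratio of at least 2, or at most 0.5, pooled and in library 1 alone, with at least 20 UMIs over both classes. A count of 0 was replaced by 3 for bounds. Comparisons left out the genes of the rule and 35 ambiguous symbols, each shared by several genes.

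Genes named are those of the 21 lists, Rel, and the 12 highest and 12 lowest called genes outside the lists against T cells and dendritic cells; others are marked as named after their values were seen. Shares were also computed after thinning each barcode to 500 UMIs, and doublets were not called. Alternatives changed 1 choice at a time: UMI, mitochondrial and marker limits, shared barcodes, other-lineage UMIs, library 1 alone, gene minimum, weighting, totals, centring and thinning. Leaving out Ig-rich members and requiring an interval without 1 were chosen as alternatives after seeing the data. The software was Python 3.11.15, numpy 2.4.6, scipy 1.17.1, pandas 2.3.3 and matplotlib 3.10.9. The functions were tested on simulated data. Some genes of the lists are counted in them but not reported here by name.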

Additional observations from a re-analysis of the deposited data

Results flagged for a closer look

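Cxcr3, a chemokine receptor of activated lymphocytes, stood out because its ratio of B cells over T cells lay on opposite sides of 1 in the libraries: 0.30 in library 1 and 5.78 in library 2. The difference between libraries was not tested. It rests on 6 UMIs in the members, 5 of them in Ig-rich members.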

How the results depend on the processing

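No paired analysis was possible because barcodes carry only a library number tied to no genotype, with 1 library per genotype. The number of members was 32 at a minimum of 1000 UMIs and 89 at a limit of 5% mitochondrial UMIs. The lambda share was 1.17% at 3 or more marker UMIs, 10.9% with at least 2 of the 3 marker genes and 9.94% in library 1. Genes higher than in T cells numbered 292 at 1000 UMIs, 713 at 10 UMIs per gene, 718 by means over barcodes, 775 without receptor, ribosomal and mitochondrial genes in the totals, 861 over the median ratio, 269 after thinning and 780 without Ig-rich members. Genes lower than in T cells numbered 1045 without those genes in the totals, 959 over the median ratio, 696 after thinning, 1085 without Ig-rich members and 878 with an interval below 1. Against dendritic cells, 86 were higher at 1000 UMIs, 314 at 10 UMIs per gene, 304 over the median ratio and 29 after thinning, and 288 were lower without shared barcodes, 919 at 10 UMIs per gene, 270 without those genes in the totals, 282 over the median ratio and 72 after thinning. At 1000 UMIs, where 13 of 32 members are Ig-rich, log2 ratios over T cells turned to -0.10 for Inpp5d, -0.64 for Ccr7, -0.87 for Hspa1a and -0.15 for Rel, and over dendritic cells to -0.54 for Inpp5d, -0.15 for H2-DMb2, -0.12 for Btg1, -1.05 for Hspa1a and -0.52 for Rel. Xbp1 turned to -0.33 over dendritic cells by means over barcodes, and after thinning to -0.94. Thinning also turned Edem1 to -0.89 over T cells and -0.94 over dendritic cells, and Tnfrsf13b to -0.02 over dendritic cells. Without Ig-rich members Xbp1 was at -0.20 over T cells and -1.37 over dendritic cells, and Edem1 at -0.63 and -0.54. The causes were not tested, beyond what fewer barcodes or UMIs imply. Of 1391 log2 ratios of named genes over all alternatives, 1213 stayed within the counting interval of the main value, 160 left it and 18 changed sign. A median of 615.5 UMIs per member limits what can be read of any 1 barcode.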
